A study of Mus musculus with 18 samples.

Results

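Connexins and other genes of the intercalated disc were followed through 3 regions of the infarcted mouse heart, with and without liraglutide. The set holds 10 genes picked by symbol, Gja1, Gja4, Gja5, Gjc1, Cdh2, Dsp, Pkp2, Dsg2, Jup and Tjp1, of 25230 symbols in the count table. All 10 were found in the table and all 10 passed the filter on low counts in each comparison. Messenger RNA of 18 libraries was counted. Every group consists of male C57BL/6J mice whose left anterior descending coronary artery had been ligated, with tissue taken 3 days later. The tissues are the atria and 2 regions of the left ventricle (LV), the infarcted and the non-infarcted. Mice had received liraglutide, which activates the GLP-1 receptor, or phosphate-buffered saline (PBS), and each of the 6 groups has 3 libraries that the labels call biological replicates. All 6 groups share the infarction, so the non-infarcted LV is the spared ventricle of an infarcted heart, and hearts without infarction were not analysed here. No dose, schedule or age of the mice is stated, nor whether animals were pooled.

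Cardiomyocytes are joined end to end at the intercalated disc. Gap junction channels, each built of connexin subunits, pass the electrical impulse from cell to cell. Adherens junctions, built on N-cadherin, anchor the myofibrils, and desmosomes, built on desmogleins, desmocollins, plakoglobin, plakophilin and desmoplakin, anchor the intermediate filaments. Gja1 encodes connexin 43, the main connexin of ventricular muscle. Gja5 encodes connexin 40, known from atrial muscle, the ventricular conduction system and arterial endothelium. Gja4 encodes connexin 37 of vascular endothelium, and Gjc1 encodes connexin 45, known from nodal tissue and from the early heart and vessels. Loss of connexin 43 from the disc is a classical feature of the border of an infarct, as judged from protein in tissue sections, which was not measured here.

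The proximal promoters of Gja1, Gja5 and Gja4 are shown because these 3 connexins were all higher in infarcted than in non-infarcted LV, while Gja5 was also far higher in the atria. Each run is the 250 bases before the RefSeq start listed for the gene, 5′ to 3′ on its strand, from the RefSeq table on GRCm38.p6. For Gja5 that start lies well inside the annotated span of the gene, 96904693 to 97077416 with 3 transcripts. Bases before the upstream end of that span were not searched. The Gja5 motifs, found or absent, therefore describe this window only. Capitals mark the motifs that were found among those searched.
Gja1, chr10:56377050-56377299, plus strand: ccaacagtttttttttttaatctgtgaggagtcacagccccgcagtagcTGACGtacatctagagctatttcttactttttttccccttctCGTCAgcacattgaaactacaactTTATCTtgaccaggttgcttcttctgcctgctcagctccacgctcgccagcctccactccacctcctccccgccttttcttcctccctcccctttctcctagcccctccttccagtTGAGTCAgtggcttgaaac
Gja5, chr3:97032152-97032401, plus strand: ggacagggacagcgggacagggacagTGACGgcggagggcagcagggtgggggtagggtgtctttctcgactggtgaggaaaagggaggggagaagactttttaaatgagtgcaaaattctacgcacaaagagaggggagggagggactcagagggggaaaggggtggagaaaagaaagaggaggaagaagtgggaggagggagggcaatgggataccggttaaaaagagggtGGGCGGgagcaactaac
Gja4, chr4:127314040-127314289, minus strand: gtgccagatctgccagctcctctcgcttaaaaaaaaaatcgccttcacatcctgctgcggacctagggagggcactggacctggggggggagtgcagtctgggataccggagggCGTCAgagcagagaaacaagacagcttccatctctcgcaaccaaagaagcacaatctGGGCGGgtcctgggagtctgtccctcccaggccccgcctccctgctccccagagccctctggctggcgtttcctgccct

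Of the 10 genes, 6 had an entry in that table. The search covered both strands for 8 motifs: the T-box half-site AGGTGT, the NKX2-5 site TNAAGTG, the GATA site AGATAA, the GC box GGGCGG, the AP-1 site TGANTCA, the TEAD site GGAATG, the TATA box TATAAA and the CREB half-site TGACG. None of these matches overlapped another. In the Gja1 window an AP-1 match began 19 bases before the start (position -19), a GATA match lay at -135 and CREB half-sites lay at -201 and -159. Among 32851 promoters of the same length, 6.75% held the AP-1 letters, 9.99% the GATA letters and 17.8% the CREB letters. The Gja5 window held a GC box at -17 and a CREB half-site at -224, and the Gja4 window a GC box at -79 and a CREB half-site at -136. GC boxes were found in 32.7% of all promoters. The T-box letters, present in 11.8% of promoters, matched at -219 for Dsp and -19 for Jup and in none of the 3 connexin windows shown, and the NKX2-5, TEAD and TATA letters (10.1%, 12.6% and 12.4% of promoters) matched in none of those 3 either. Such matches describe the letters only and are not known binding sites.

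Library totals ran from 4280459 to 21853482 counts, and the lowest count of any of the 10 genes in any library was 34, for Gja5. Levels are given in CPM, the count scaled to the total of its library, and fold changes come from edgeR on TMM-scaled counts, so a ratio of CPM means can differ slightly from the fitted fold. The labels of atria and LV fitted their markers. The 5 atrial cardiomyocyte genes summed to between 37856 and 53400 CPM in the atria and to at most 521 CPM in LV. These genes set atria apart from LV and say nothing on the infarcted label. Traces of other tissue were seen in some atrial libraries. The ventricular light chain Myl2 stood at 275, 8.30 and 924 CPM in the atria with liraglutide and at 2.08 to 8.82 CPM with PBS, and 5 adipocyte genes summed to 298 CPM in atria PBS replicate 2 against 8.78 to 18.6 CPM in the other atria.

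The amount of each transcript was set first against exon length. That length joins the exons of all annotated transcripts of a gene, 10.257 kb over 8 transcripts for Gja1. Ranks between genes therefore depend on this choice, and the transcripts in use were not measured. On the scale of CPM per kilobase of annotated exon, Dsp, which encodes desmoplakin, the link from desmosome to filament, was the most abundant of the 10 in every group, from 98.1 in atria PBS to 181 in non-infarcted LV with liraglutide. Jup, Pkp2, Gja1, Cdh2 and Tjp1 lay between 14.5 and 51.3 per kilobase in all groups. Gjc1 was the lowest in the atria at 3.09 per kilobase with PBS, and Gja5 was the lowest in LV at 0.925 in non-infarcted LV with PBS. Dsg2 was the one junction gene of the 6 with a mean per kilobase under 10 in any group, at 8.11 in infarcted LV with liraglutide.

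**Figure D1:**
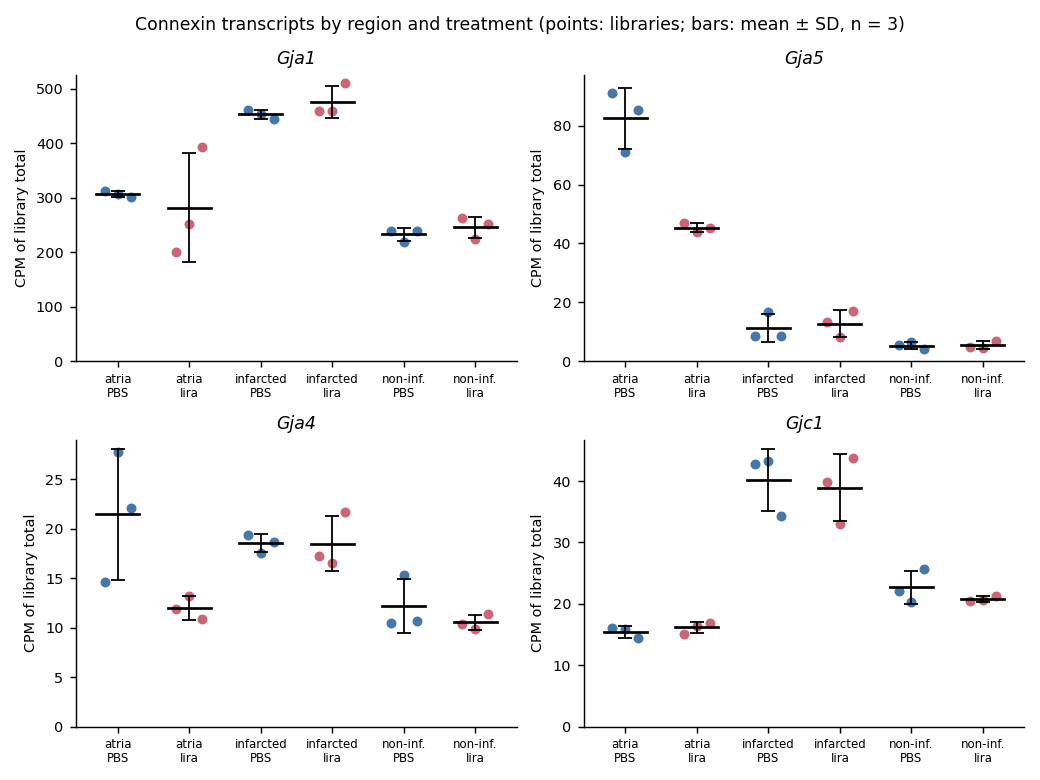
Level of the 4 connexin genes in CPM of the library total (vertical axis, linear from 0) for each of the 18 libraries, by region and treatment; points are libraries and bars are group means with SD (n = 3). Gja5 is highest in the atria, and Gja1 and Gjc1 are highest in the infarcted LV.

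The infarcted LV carried more connexin RNA than the non-infarcted LV of the same study, for all 4 connexins and under both treatments. Gja1 stood at 460.2, 454 and 444 CPM in the 3 infarcted libraries with PBS and at 239.8, 219.5 and 239 CPM in the non-infarcted ones. The lowest infarcted library was therefore far above the highest non-infarcted one. The means were 453 ± 8.27 and 233 ± 11.4 CPM (SD, n = 3), and edgeR gave a 1.87-fold difference (log2 fold change 0.90, SE 0.0821, Benjamini-Hochberg adjusted p = 4.94e-07). Liraglutide-treated mice, which gave separate libraries, showed 458, 458 and 509.6 CPM in infarcted against 262, 225 and 251 CPM in non-infarcted LV. That difference was 1.90-fold (log2 fold change 0.93, SE 0.086, edgeR adjusted p = 5.52e-07). In bulk tissue a change in the number of cells of a type and a change in RNA per cell cannot be told apart.

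Gjc1 followed the same order. Infarcted libraries with PBS held 42.8, 43.4 and 34.3 CPM of it and non-infarcted ones 22.0, 20.3 and 25.7 CPM, with no overlap. The rise was 1.74-fold with PBS (log2 fold change 0.80, SE 0.126, edgeR adjusted p = 0.000138) and 1.83-fold with liraglutide (0.87, SE 0.103, adjusted p = 6.01e-06). Gja4 rose less, from 12.2 ± 2.75 to 18.5 ± 0.906 CPM with PBS (SD, n = 3; log2 fold change 0.56, SE 0.145, edgeR adjusted p = 0.00497). With liraglutide it went from 10.5 ± 0.744 to 18.5 ± 2.78 CPM (log2 fold change 0.78, SE 0.13, edgeR adjusted p = 0.000152).

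Gja5, scarce in LV, had the largest fold change of the 10 in this comparison and also the widest spread. With PBS the infarcted libraries stood at 8.57, 16.8 and 8.64 CPM and the non-infarcted at 5.47, 6.40 and 4.08 CPM. Every infarcted library exceeded every non-infarcted one, but replicate 2 stood well above the other infarcted libraries. The fitted difference was 2.11-fold (log2 fold change 1.07, SE 0.263, edgeR adjusted p = 0.00676). Without infarcted replicate 2 it fell to a log2 fold change of 0.65 (edgeR adjusted p = 0.0292). Under liraglutide the values were 13.2, 8.14 and 17.0 against 4.85, 4.52 and 6.92 CPM, a 2.30-fold rise (log2 fold change 1.20, SE 0.246, edgeR adjusted p = 0.00185).

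The desmosomal and adherens junction genes mostly went the other way. Dsg2, which encodes the desmosomal cadherin desmoglein 2, fell from 119, 92.8 and 98.8 CPM in non-infarcted to 71.8, 62.3 and 64.5 CPM in infarcted LV with PBS, so the groups did not overlap. It was 1.63-fold lower in both treatments (log2 fold change -0.70, SE 0.104, edgeR adjusted p = 0.000104 with PBS, and -0.70, SE 0.0802, adjusted p = 4.48e-06 with liraglutide). Cdh2, the gene of N-cadherin, fell from 311, 258 and 266 to 202, 211 and 218 CPM with PBS. Its log2 fold change was -0.46 (SE 0.0851, edgeR adjusted p = 0.000416) with PBS and -0.45 (SE 0.0804, adjusted p = 0.000288) with liraglutide. Dsp fell from 1695 ± 161 to 1416 ± 38.3 CPM with PBS (log2 fold change -0.31, SE 0.0808, edgeR adjusted p = 0.005) and from 1746 ± 80.8 to 1361 ± 138 CPM with liraglutide (-0.38, SE 0.0976, adjusted p = 0.0047).

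Plakophilin 2, the armadillo protein that ties desmosomal cadherins to desmoplakin, gave the weakest of these calls. Pkp2 held 180.5, 151 and 167 CPM in infarcted and 199, 176 and 194 CPM in non-infarcted LV with PBS, and these groups overlapped. The log2 fold change of -0.24 (SE 0.094, edgeR adjusted p = 0.0435) lost its call with DESeq2 (adjusted p = 0.0658), in the fit of all 18 libraries (0.101), without infarcted replicate 2 (0.227) or 3 (0.102) and without non-infarcted replicate 1 (0.111) or 3 (0.107). With liraglutide Pkp2 was lower in all 3 infarcted libraries (log2 fold change -0.32, SE 0.0844, edgeR adjusted p = 0.00534).

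Plakoglobin, which takes part in both desmosomes and adherens junctions, did not pass the test. Jup stood at 328, 333 and 329.6 CPM in infarcted and 313, 298 and 259 CPM in non-infarcted LV with PBS (log2 fold change 0.13, SE 0.0762, edgeR adjusted p = 0.16), and its liraglutide value was 0.15 (SE 0.101, adjusted p = 0.247). Tjp1, which encodes the scaffold protein ZO-1 that binds connexin 43, rose with the connexins. It went from 131, 104 and 106 to 165, 149 and 167 CPM with PBS (log2 fold change 0.44, SE 0.0959, edgeR adjusted p = 0.00161), and its log2 fold change with liraglutide was 0.45 (SE 0.088, adjusted p = 0.000683).

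In all, 9 of the 10 genes passed the threshold in each treatment, 5 higher (the 4 connexins and Tjp1) and 4 lower (Cdh2, Dsp, Pkp2, Dsg2) in the infarcted LV. These calls come from fits that took the libraries as independent. With the replicate number as a block none of them was lost. The background was high: 47.4% of 12831 genes passed with PBS and 49.8% of 13022 with liraglutide. Over all tested genes the median log2 fold change was -0.02 with PBS, and 25.7% of genes rose and 21.7% fell. The difference of the infarct effect between treatments was tested as a contrast in all 18 libraries. The values of the 10 genes ran from -0.07 to 0.23 on the log2 scale, and 0 of 10 passed with edgeR or DESeq2, 0 of 10 at an unadjusted p under 0.05. Among all 13920 genes 0% were called in that contrast by edgeR, with 174 genes at an unadjusted p under 0.05 and 0 calls by DESeq2.

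**Figure D2:**
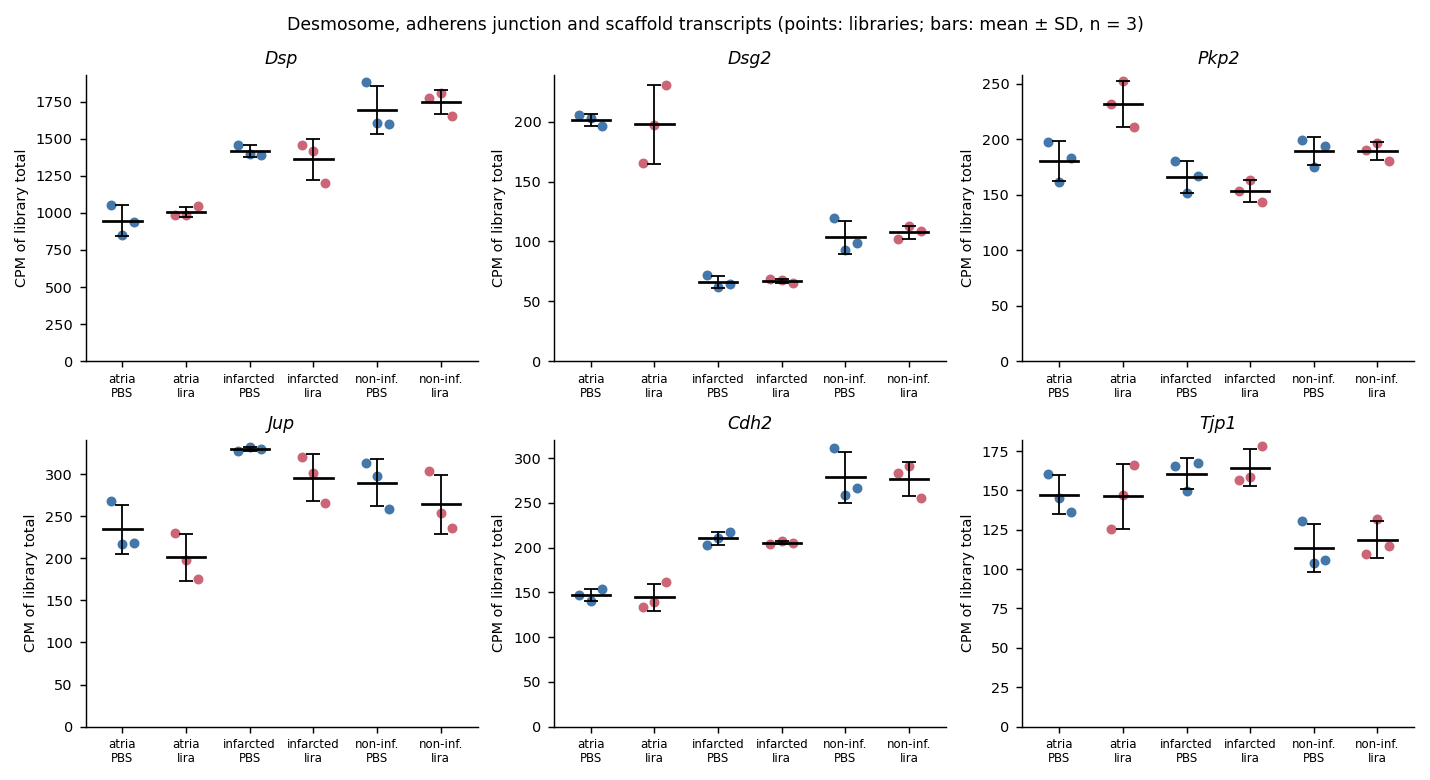
Level of the 6 junction genes in CPM of the library total (vertical axis, linear from 0) for each of the 18 libraries, by region and treatment; points are libraries and bars are group means with SD (n = 3). Dsg2 is highest in the atria, whereas Cdh2 and Dsp are lowest there and highest in the non-infarcted LV.

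Cell type markers moved along with these genes. The 10 cardiomyocyte markers summed to between 66190 and 72193 CPM in infarcted and between 85408 and 93674 CPM in non-infarcted LV with PBS, and 10 of 10 fell, with a median log2 fold change of -0.38. Against that median, Cdh2, Dsp and Pkp2 differed by -0.08, 0.07 and 0.14 on the log2 scale with PBS and by -0.09, -0.02 and 0.04 with liraglutide. Dsg2 lay below it by 0.32 (difference -0.32, and -0.34 with liraglutide). The connexins lay above it by 0.94 for Gja4, 1.18 for Gjc1, 1.28 for Gja1 and 1.45 for Gja5 with PBS, and Tjp1 by 0.82. In the same tissue 6 of 6 endothelial markers rose, from summed levels of 944 to 988 CPM to 1867 to 2053 CPM, and 5 of 6 arterial endothelial markers rose, from 106 to 120 CPM to 245 to 267 CPM. The 6 fibroblast markers also rose, from 612 to 755 CPM to 1474 to 1706 CPM, smooth muscle and pericyte markers summed to 1799 to 1959 CPM against 777 to 958 CPM, and macrophage and monocyte markers to 289 to 377 CPM against 140 to 178 CPM. No marker of these 5 lists was at 0 in any group. Neutrophil markers summed to 34.9 to 131 CPM in infarcted and 22.4 to 41.1 CPM in non-infarcted LV with PBS, and edgeR called 0 of 5. With liraglutide edgeR called 5 of the 5 neutrophil markers and 8 of the 10 cardiomyocyte markers. The part of these cell types in the connexin values was not tested.

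The balance of connexin 43 RNA to N-cadherin RNA, 2 genes seen above to move in opposite directions, differed between infarcted and non-infarcted LV in every library. The ratio of Gja1 to Cdh2 counts was 0.770 to 0.897 in non-infarcted LV with PBS and 2.04 to 2.27 in infarcted LV, and with liraglutide 0.772 to 0.983 against 2.21 to 2.49. With 3 libraries against 3 an exact permutation test cannot give a two-sided p under 0.1, so these ratios are given without a test. In the atria with PBS the same ratio was 1.96 to 2.19, within or just under the infarcted range, from lower levels of both genes. In the atria with liraglutide it was 1.51 to 2.44.

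**Figure D3:**
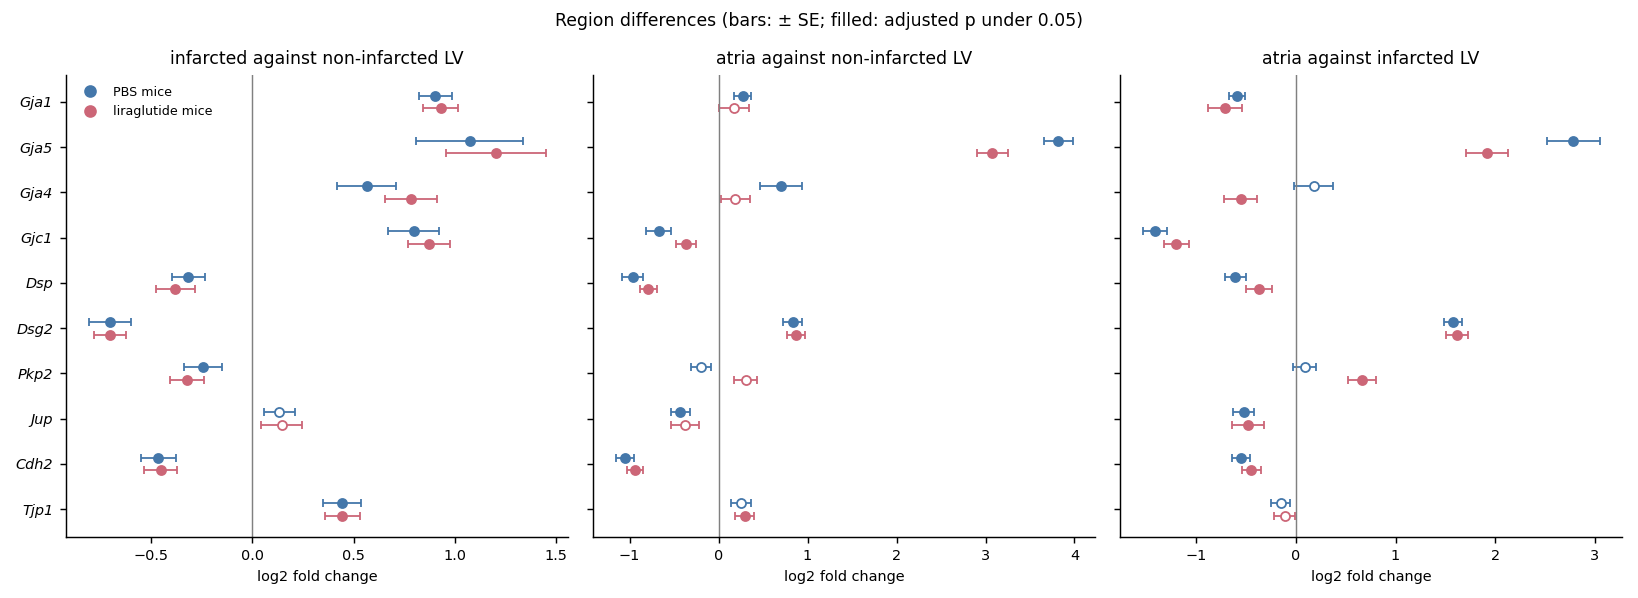
Fitted log2 fold changes of the 10 genes between regions (horizontal axis; error bars are SE, colours mark PBS and liraglutide libraries). The connexins and Tjp1 lie right of 0 and Cdh2, Dsp, Pkp2 and Dsg2 left of it for infarcted against non-infarcted LV, and Gja5 reaches 3.82 for atria against non-infarcted LV.

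The atria differed from the ventricle above all in Gja5. Atrial libraries with PBS held 91.2, 70.9 and 85.3 CPM and non-infarcted LV 5.47, 6.40 and 4.08 CPM. This was a 14.1-fold difference (log2 fold change 3.82, SE 0.16, edgeR adjusted p = 2.28e-08), the largest of the 10 genes. With liraglutide the atria held 46.9, 43.9 and 45.4 CPM, and the difference from non-infarcted LV was 8.43-fold (log2 fold change 3.07, SE 0.173, edgeR adjusted p = 1.31e-06). In GRCm38 (mm10) coordinates the gene spans chromosome 3 from 96904693 to 97077416 on the plus strand. Exons of Gpr89 on the other strand overlap 2.87% of its exon length, and no source used here gives the strand setting of the counting, so reads of that stretch cannot be assigned to one of the genes.

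The other connexins did not share that difference. Gja1, at chromosome 10, positions 56377330 to 56402513, plus strand, stood at 313, 306 and 301 CPM in atria with PBS, between the infarcted and the non-infarcted LV. It was 1.21-fold higher than in non-infarcted LV (log2 fold change 0.27, SE 0.0918, edgeR adjusted p = 0.029) and 1.51-fold lower than in infarcted LV (-0.59, SE 0.0828, adjusted p = 8.81e-05). The first of these calls was lost in the fit of all 18 libraries (adjusted p = 0.0548), without atria replicate 1 (0.0577) or 3 (0.0801) and without non-infarcted replicate 1 (0.0676) or 2 (0.150). With liraglutide the atria ranged from 201 to 393 CPM and did not differ from non-infarcted LV by the test (log2 fold change 0.17, SE 0.171, edgeR adjusted p = 0.434).

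Gjc1, at chromosome 11, positions 102799579 to 102819700, minus strand, was lowest in the atria. Its atrial libraries with PBS held 16.1, 15.9 and 14.4 CPM, 1.60-fold under non-infarcted LV (log2 fold change -0.67, SE 0.137, edgeR adjusted p = 0.00175) and 2.67-fold under infarcted LV (-1.41, SE 0.122, adjusted p = 1.5e-06). With liraglutide the difference from non-infarcted LV was -0.37 (SE 0.11, edgeR adjusted p = 0.0211), and it was lost without non-infarcted replicate 1, 2 or 3 (adjusted p = 0.0520, 0.0585 and 0.0676). Gja4, at chromosome 4, positions 127311421 to 127314039, minus strand, varied between atrial libraries with PBS, at 14.6, 27.7 and 22.0 CPM. Its log2 fold change against non-infarcted LV was 0.70 (SE 0.233, edgeR adjusted p = 0.0311). The groups overlapped, and without atria replicate 2, the library with adipocyte markers, the value was 0.47 (adjusted p = 0.1003). That call was lost as well without atria replicate 3 (0.0819) and without non-infarcted replicate 1 (0.116) or 3 (0.0922).

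Counted per exon length, the 4 connexins could be set against each other as shares of their sum. The joined exons measure 10.257 kb over 8 transcripts for Gja1 and 1.685 kb over 1 transcript for Gja4. Where the transcripts in use are shorter than the joined exons, a gene's share is too low and the other shares too high. The size of a share is thus bound to these lengths, which are the same in every library. Gja1 made up 49.8% ± 2.21 (SD, n = 3) of the summed CPM per kilobase of the 4 connexins in atria with PBS, and 64.2% ± 3.68 and 67.8% ± 1.10 in non-infarcted and infarcted LV. In atria with liraglutide the Gja1 share was 58.9% ± 8.55 (SD, n = 3), and its highest library, at 68.4%, lay within the range of the LV libraries (60.0 to 71.5%). Gja5 made up 24.0% ± 3.71 of the sum in atria with PBS, 17.8% ± 3.74 in atria with liraglutide and between 2.00 and 4.41% in the single LV libraries. Gjc1 took 5.15% ± 0.381 in atria with PBS against 12.8% ± 1.56 in non-infarcted LV. Gja4 took 20.4% ± 4.44 in non-infarcted and 16.9% ± 1.04 in infarcted LV with PBS, and Gja5 2.61% ± 0.567 and 3.02% ± 1.21.

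**Figure D4:**
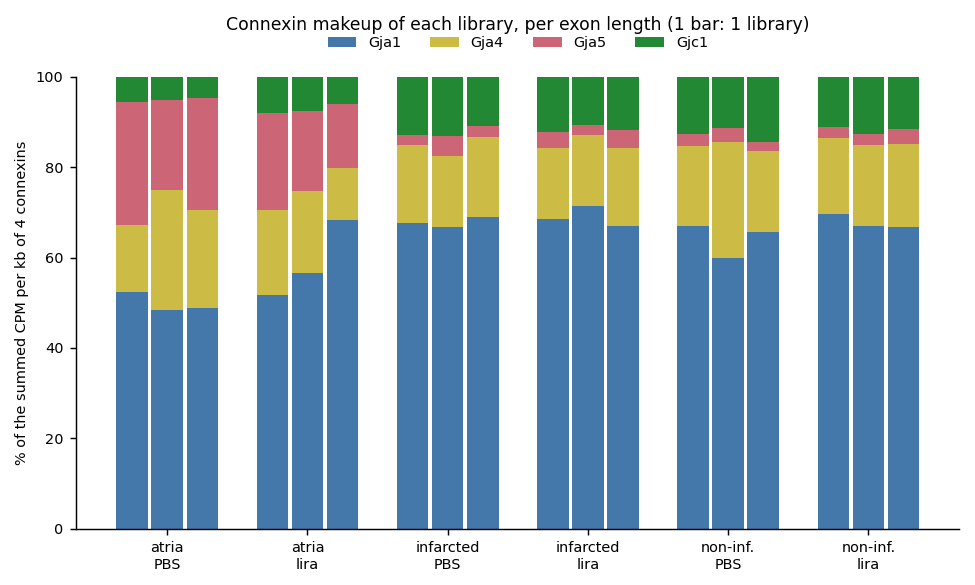
Share of each connexin in the summed CPM per kilobase of Gja1, Gja4, Gja5 and Gjc1 (vertical axis, percent), 1 bar per library in 6 groups of 3. Length joins the exons of all annotated transcripts of a gene, so the size of a share depends on it. The Gja5 share is 14.1 to 27.3% in the atrial libraries and 2.00 to 4.41% in the LV libraries.

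Among the junction genes, the desmosomal cadherin and the desmosomal plaque gene parted between the chambers. Dsg2, at chromosome 18, positions 20558074 to 20604521, plus strand, stood at 206, 203 and 196 CPM in atria with PBS, 1.78-fold above non-infarcted LV (log2 fold change 0.83, SE 0.107, edgeR adjusted p = 7.3e-05) and 2.98-fold above infarcted LV (1.58, SE 0.0937, adjusted p = 6.93e-08). Dsp, at chromosome 13, positions 38151294 to 38198577, plus strand, held 1054, 848 and 940.3 CPM there, 1.95-fold under non-infarcted LV (log2 fold change -0.96, SE 0.117, edgeR adjusted p = 4.71e-05). The ratio of Dsg2 to Dsp counts was 0.195 to 0.239 in the atria and 0.0577 to 0.0634 in non-infarcted LV with PBS. Exons of unnamed gene models on the other strand overlap 5.17% of the Dsp and 3.99% of the Dsg2 exon length.

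Cdh2, at chromosome 18, positions 16588877 to 16809246, minus strand, held 147, 139.9 and 154 CPM in atria with PBS. That was 2.07-fold under non-infarcted LV (log2 fold change -1.05, SE 0.106, edgeR adjusted p = 1.15e-05) and 1.46-fold under infarcted LV (-0.55, SE 0.0881, adjusted p = 0.000259), so the 3 regions differed stepwise. Jup, at chromosome 11, positions 100368958 to 100397763, minus strand, was lower in atria with PBS than in non-infarcted LV (log2 fold change -0.43, SE 0.109, edgeR adjusted p = 0.0065), though the CPM of the groups overlapped. The liraglutide value was -0.38 (SE 0.159, edgeR adjusted p = 0.0772), and with the replicate number as a block -0.39 (adjusted p = 0.0288), though libraries with the same number did not correlate in this comparison (r = -0.0217, -0.0756 and -0.119). It passed as well in the fit of all 18 libraries (adjusted p = 0.0362) and without atria replicate 1 (0.0175). Pkp2, at chromosome 16, positions 16213318 to 16272712, plus strand, did not differ by the test between atria and non-infarcted LV with PBS (log2 fold change -0.20, SE 0.113, edgeR adjusted p = 0.166). With liraglutide its atrial libraries were 1.59-fold above infarcted LV (log2 fold change 0.67, SE 0.139, edgeR adjusted p = 0.00349). Against non-infarcted LV the liraglutide value was 0.30 (SE 0.126, edgeR adjusted p = 0.0722), which passed in the fit of all 18 libraries (adjusted p = 0.0257) and without atria replicate 3 (0.000166).

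Tjp1, at chromosome 7, positions 65296165 to 65527781, minus strand, held 161, 145 and 136 CPM in atria with PBS and was above the non-infarcted LV in all 3 libraries (log2 fold change 0.25, SE 0.111, edgeR adjusted p = 0.0817). With the replicate number as a block it passed (log2 fold change 0.26, edgeR adjusted p = 0.0263). Libraries with the same number did correlate in this comparison (r = 0.160, 0.117 and 0.227). Tjp1 passed as well in the fit of all 18 libraries (edgeR adjusted p = 0.0309) and without non-infarcted replicate 1 (0.0305). The liraglutide value was 0.29 (SE 0.107, edgeR adjusted p = 0.0462) and failed without the filter (adjusted p = 0.0603), without atria replicate 2 (0.148) and without non-infarcted replicate 1 (0.203) or 3 (0.144).

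Between atria and non-infarcted LV, 8 of 10 genes passed with PBS (4 higher, 4 lower) and 6 of 10 with liraglutide (3 higher, 3 lower), against 51.8% and 47.5% of all tested genes. Between atria and infarcted LV, 7 passed with PBS (2 higher, 5 lower) and 9 with liraglutide (3 higher, 6 lower), against 52.3% and 43.2%. Of the liraglutide calls, Dsp (edgeR adjusted p = 0.0403) kept its call in 7 of 11 alternatives. Jup (0.0338) kept it in 8 and Gja4 (0.0212) in 10, whereas the other called genes kept theirs in all 11. These comparisons share libraries, so their counts are not independent, and the counts come from fits without the replicate block. The cardiomyocyte markers moved too, with a median log2 fold change of -0.62 for atria against non-infarcted LV with PBS and -0.37 with liraglutide. The 6 conduction system markers summed to 95.5 to 154 CPM in atria with PBS and 47.9 to 52.5 CPM in non-infarcted LV, and 6 epicardial and mesothelial markers to 179 to 269 CPM against 9.78 to 11.3 CPM. Their part in the atrial values was not tested.

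Liraglutide against PBS gave 0 calls among the 10 genes in any region with edgeR, and 3 of them were at an unadjusted p under 0.05, all in the atria. Gja5 came closest. The atrial libraries held 46.9, 43.9 and 45.4 CPM with liraglutide and 91.2, 70.9 and 85.3 CPM with PBS, so the lowest control was far above the highest treated library. The difference of 1.69-fold (log2 fold change -0.76, SE 0.136, unadjusted p = 0.000339) had an edgeR adjusted p of 0.363 over 13530 genes. DESeq2 called it (log2 fold change -0.76, adjusted p = 0.00135), and so did edgeR without liraglutide replicate 3 and PBS replicate 2 (-0.82, adjusted p = 0.026), while liraglutide replicate 1, with Myl2 at 275 CPM, stayed in that fit. Over the alternatives that left out 1 library the adjusted p ran from 0.0667 to 0.661 and the log2 fold change from -0.88 to -0.68. Over all genes 0.00739% were called by edgeR in the atria, that is 1 gene, with 929 at an unadjusted p under 0.05, and DESeq2 called 118.

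Marker lists were read in the same atria, as sums of CPM of library totals without TMM scaling. The TMM factors over all 18 libraries were 0.911, 0.926 and 1.07 with liraglutide and 1.03, 1.09 and 1.01 with PBS. On the TMM scale a sum is divided by its factor, so the small gaps between the endothelial and arterial endothelial sums depend on the scale. The endothelial list summed to 975 to 1078 CPM with liraglutide and 1089 to 1128 CPM with PBS, and the neutrophil list to 74.7 to 366 CPM and 197 to 669 CPM. The arterial endothelial list summed to 119 to 129 CPM with liraglutide and 135 to 136 CPM with PBS, with 0 of 6 genes called by edgeR or DESeq2 and 0 of 6 at an unadjusted p under 0.05. The conduction system list summed to 63.7 to 125 CPM against 95.5 to 154 CPM, with 0 of 6 genes called by edgeR or DESeq2. The 1 gene of these 6 at an unadjusted p under 0.05, Hcn4, the gene of a pacemaker channel, stood at 23.6, 40.0 and 35.4 CPM against 69.7, 73.9 and 38.8 CPM (log2 fold change -0.79, SE 0.257, edgeR adjusted p = 0.578). Atrial cardiomyocyte genes summed to 37856 to 49656 CPM against 46206 to 53400 CPM. Their part in the Gja5 value was not tested. The ratio of Gja5 to Gja1 counts was 0.233, 0.175 and 0.115 with liraglutide and 0.292, 0.232 and 0.283 with PBS, so that these ratios just overlapped.

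Gja4 and Pkp2 were the other 2 genes whose atrial groups did not overlap in CPM of library totals. Gja4 held 11.9, 13.2 and 10.8 CPM with liraglutide and 14.6, 27.7 and 22.0 CPM with PBS (log2 fold change -0.73, SE 0.233, edgeR adjusted p = 0.545). Without PBS replicate 2 the value was -0.52 (adjusted p = 1.00), and without liraglutide replicate 3 as well -0.37 (adjusted p = 0.676). Pkp2 was the one gene on the high side, at 232, 253 and 211 CPM with liraglutide against 197, 161 and 183 CPM with PBS (log2 fold change 0.47, SE 0.147, edgeR adjusted p = 0.538). In all, 3 of 10 genes had groups that did not overlap in CPM, against 14.9% of all tested genes. With TMM-scaled library sizes the Gja4 groups did overlap, at 14.23 CPM in liraglutide replicate 2 and 14.19 CPM in PBS replicate 1. The share of all genes was taken in CPM of library totals only.

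Gja1 had nearly equal atrial means and a very unequal spread. The treated atria held 201, 251 and 393 CPM, and the controls 313, 306 and 301 CPM. The coefficient of variation was 35.3% with liraglutide and 1.92% with PBS. With TMM-scaled library sizes the spread was less unequal, at 286 ± 74.2 CPM with liraglutide and 294 ± 11.7 CPM with PBS (SD, n = 3). Across the treated libraries Myl2 stood at 275, 8.30 and 924 CPM in the same order. Replicate 3 had the highest value of both genes, but Gja1 was lowest in replicate 1 and Myl2 in replicate 2. Fibroblast markers summed to 599, 556 and 1259 CPM and macrophage and monocyte markers to 191, 118 and 445 CPM. Other lists did not peak there, such as the atrial cardiomyocyte genes at 43258, 49656 and 37856 CPM. The part of other tissue or cell types in the Gja1 spread was not tested. The log2 fold change of Gja1 was -0.04 (SE 0.179, edgeR adjusted p = 0.988). Dsp, Gjc1, Cdh2, Tjp1 and Dsg2 had positive values of 0.06 to 0.19 and Jup a value of -0.11, none of them called.

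In the ventricle the values of all 10 genes were small. In infarcted LV the log2 fold changes with liraglutide ran from -0.14 for Jup to 0.11 for Gja5, and 0 of 10 genes passed with edgeR or DESeq2, none at an unadjusted p under 0.05. Jup, at 321, 301 and 266 CPM with liraglutide and 328, 333 and 329.6 CPM with PBS, was the one gene without overlap (SE 0.0888, edgeR adjusted p = 0.969), against 9.69% of all tested genes. In non-infarcted LV the values ran from -0.22 for Gja4 to 0.06 for Gja1, with 0 of 10 called by edgeR or DESeq2, 0 at an unadjusted p under 0.05 and 0 without overlap, against 8.96% of all genes without overlap. The edgeR share of all genes called was 0% in both LV regions (0 of 12988 and 0 of 12919), with 681 and 561 genes at an unadjusted p under 0.05, and DESeq2 called 4 and 2. For Gja1 the standard error was 0.0808 in infarcted and 0.0827 in non-infarcted LV on the log2 scale, and for the scarcer Gja5 it was 0.324 and 0.208.

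Whether the atrial values differed from the ventricular ones was tested as a contrast of the treatment effect, atria minus the mean of both LV regions. Pkp2 gave the smallest p, with a difference of 0.54 on the log2 scale (SE 0.149, unadjusted p = 0.00171, edgeR adjusted p = 0.240). It passed with the label number of the libraries as a block (0.54, adjusted p = 0.0462) and without atria liraglutide replicate 3 (0.67, adjusted p = 0.00978). Gja5 gave -0.80 (SE 0.296, unadjusted p = 0.0154, edgeR adjusted p = 0.484) and Gja4 -0.62 (SE 0.227, unadjusted p = 0.0134, edgeR adjusted p = 0.463). So 0 of 10 genes passed with edgeR or DESeq2, and 3 were at an unadjusted p under 0.05. Among 13920 genes 0.00718% were called by edgeR in this contrast, with 1048 at an unadjusted p under 0.05 and 102 calls by DESeq2.

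**Figure D5:**
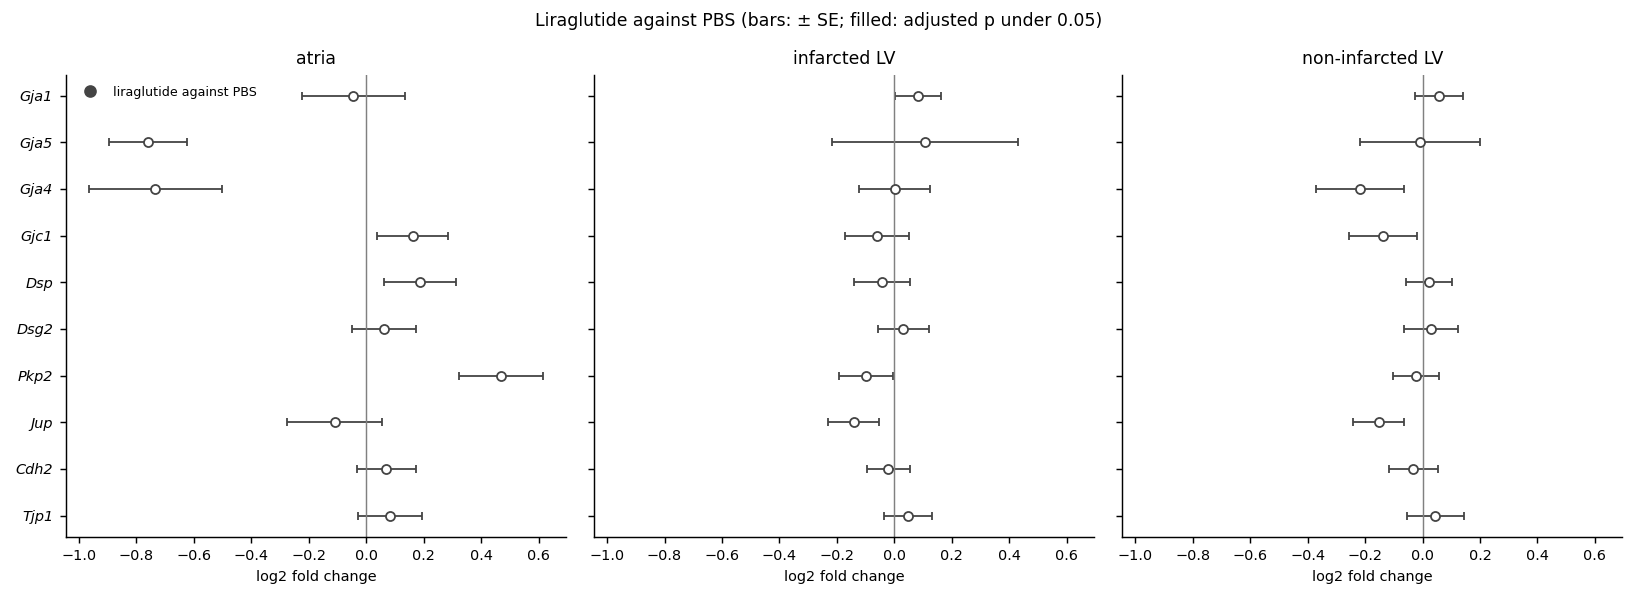
Fitted log2 fold changes of the 10 genes for liraglutide against PBS in atria, infarcted LV and non-infarcted LV (horizontal axis, shared; error bars are SE). Atrial Gja5 and Gja4 lie at -0.76 and -0.73 and atrial Pkp2 at 0.47, while the LV values lie between -0.22 and 0.11.

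The remaining members of the connexin and pannexin families were read from a list of 19 genes. Only 2 were tested between the LV regions. Panx1, which forms channels that release ATP, rose in infarcted LV from 2.36 ± 0.835 to 5.72 ± 1.19 CPM with PBS (log2 fold change 1.23, SE 0.257, edgeR adjusted p = 0.00117), and its value with liraglutide was 1.48 (SE 0.225, adjusted p = 6.99e-05). Gja3, which encodes connexin 46, fell from 16.2 ± 0.754 to 10.9 ± 2.29 CPM with PBS (log2 fold change -0.61, SE 0.155, edgeR adjusted p = 0.00476) and also with liraglutide (-0.46, adjusted p = 0.0131). This was opposite to the 4 connexins above.

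In the atria 7 of the 19 were tested. Gjb5 stood at 4.95 ± 1.65 CPM in atria with PBS and 0.0595 ± 0.0599 CPM in non-infarcted LV, and Gjd3 at 3.34 ± 0.206 against 0.0901 ± 0.0882 CPM (SD, n = 3). These 2 genes passed the filter through the atria alone, so a difference was built in and their calls add nothing. Panx2 stood at 13.5 ± 2.71 against 0.875 ± 0.171 CPM. It too passed the filter of this comparison through the atria, so its call adds nothing either. Panx1 and Gja3, which were tested between the LV regions too, were higher in atria with PBS than in non-infarcted LV (log2 fold changes 2.02 and 0.49, SE 0.266 and 0.118, edgeR adjusted p = 8.19e-05 and 0.00512). With liraglutide all 7 tested had lower fitted values than with PBS in the atria, with a median log2 fold change of -0.46 against -0.003 for all genes, and edgeR and DESeq2 called 0 of them. Panx1 alone was at an unadjusted p under 0.05 (log2 fold change -0.61, unadjusted p = 0.0201, edgeR adjusted p = 0.600).

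Another 26 disc genes were counted beside the 10. Between infarcted and non-infarcted LV 5 rose and 9 fell with PBS (median log2 fold change -0.10) and 7 rose and 9 fell with liraglutide (median -0.04), while all genes had medians of -0.02 and 47.4% and 49.8% of them were called. Afdn, the gene of afadin, which links nectins to actin, rose from 63.1 ± 2.41 to 140 ± 3.41 CPM with PBS (log2 fold change 1.09, SE 0.0782, edgeR adjusted p = 5.2e-08). Dsc2, the partner cadherin of Dsg2 in the desmosome, fell from 46.1 ± 6.61 to 28.5 ± 2.00 CPM (log2 fold change -0.76, SE 0.109, edgeR adjusted p = 4.5e-05). Ank3, which encodes ankyrin-G, and Ldb3, a Z-disc protein gene, fell as well (log2 fold changes -0.62 and -0.63, edgeR adjusted p = 3.18e-05 and 1.68e-05).

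In atria against non-infarcted LV 3 of the 26 were higher and 11 lower with PBS, and 11 higher and 8 lower with liraglutide, where 51.8% and 47.5% of all tested genes were called. Dsc2 was at 124 ± 9.84 CPM in atria with PBS (log2 fold change 1.29, SE 0.116, edgeR adjusted p = 5.15e-06), so both desmosomal cadherins stood higher in the atria and lower in the infarct than in non-infarcted LV. Tmem65 and Fgf13, which encode a disc membrane protein and a partner of the sodium channel, were lower (log2 fold changes -1.04 and -0.98, edgeR adjusted p = 2.46e-05 and 5.25e-05). For liraglutide against PBS edgeR called 0 of the 26 in each region, with 6 in the atria and 1 in each LV region at an unadjusted p under 0.05, where 929 of 13530 genes were in the atria. DESeq2 called 2 in the atria, Nrap and Xirp2, and 0 in LV.

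The genes whose pattern was most like that of each member were ranked by Pearson r of log2(CPM + 1) over the 18 libraries among 10330 genes. The libraries fall into groups by region and share depth and makeup, so these values are a description. Dsg2 was closest to Dsc2 (r = 0.990), followed by Pirt and Chd6 (0.984 and 0.982). Gjc1 was closest to Fgfr3, Dll4 and Plxnd1 (0.986, 0.977 and 0.976), of which Dll4 is one of the arterial endothelial markers. Gja1 was closest to Csgalnact1, Tek and Stat2 (0.958, 0.953 and 0.952), and Tek is the endothelial receptor Tie2. Gja5 followed Lsp1, Adarb1 and Tmed3 (0.985, 0.981 and 0.981) and Gja4 followed Dgat1, Rnf19b and Ran (0.928, 0.920 and 0.916). Within the 12 LV libraries the 3 Gja5 values were 0.882, 0.868 and 0.933.

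The nearest genes of 5 other members were ranked by the same measure. Dsp was closest to Hrc, which encodes a calcium-binding protein of the sarcoplasmic reticulum (r = 0.989 over 18 libraries), Pygm and Slc25a34 (both 0.979). Cdh2 lay next to Hsdl2, Phtf2 and Ndufs1 (0.987, 0.987 and 0.985), and Pkp2 next to Myo18a, Csrp3 and Mypn (0.905, 0.902 and 0.867). Jup was nearest to Camk1, Ciao2b and Calm3 (0.920, 0.915 and 0.910) and Tjp1 to Kat6a, Smc1a and Enpep (0.930, 0.922 and 0.916). Within the 12 LV libraries the 3 Jup values were 0.822, 0.774 and 0.657.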

How the data were processed

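The authors deposited raw counts per gene symbol, whole numbers, in 1 table of 18 libraries. Polyadenylated RNA was sequenced from stranded TruSeq libraries, per the labels' protocols. STAR 2.7.9a, DESeq2 and mm10 were used, per the submitters' processing notes, whereas the tool, strand setting and annotation used for counting were not given in the sources used here. Members, lists and tests were chosen with earlier results of these data known. Named are the 10 members, up to 4 called genes per list and comparison with the smallest p, and 3 neighbours per member (mean CPM of at least 5); some list genes under this rule are not reported here.

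EdgeR 4.0.16 in R 4.3.3 was fitted to the 6 libraries of a comparison at a time (filterByExpr, TMM, robust quasi-likelihood, Benjamini-Hochberg adjustment over all tested genes, threshold 0.05), after a test on simulated data. Contrasts of the treatment effect used all 18. P-values measure the spread between libraries. Positions and exon lengths are from GENCODE for GRCm38, promoters from RefSeq. Replicate numbers paired the libraries of infarcted and non-infarcted LV (lowest correlation of same-numbered deviations 0.207 with PBS, 0.163 with liraglutide) and of atria and non-infarcted LV with PBS (0.117). Alternatives were DESeq2 1.42.0, RLE factors, no filter, all 18 libraries, a replicate block and leaving out libraries.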

Additional observations from a re-analysis of the deposited data

How the results depend on the processing

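Of 660 alternative values for the 60 region differences, 658 kept their direction and 618 their side of the threshold. In atria against non-infarcted LV with liraglutide, leaving out libraries gave -0.0399 to 0.33 for Gja1, and in atria against infarcted LV with PBS -0.0552 to 0.41 for Gja4. Of the 10 genes, the number called for liraglutide in the atria was 1 with DESeq2 and 1 without liraglutide replicate 3 and PBS replicate 2. For the same 10 genes in the contrast of atria with LV it was 1 with the replicate block and 0 to 1 with libraries left out. The causes were not tested.

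Near-zero liraglutide values changed sign. In the atria, leaving out libraries gave -0.27 to 0.12 for Gja1 and -0.26 to 0.0362 for Jup, and leaving out that pair gave -0.0014 for Cdh2 and -0.0093 for Dsg2. In infarcted LV the ranges were -0.10 to 0.0578 for Gja4, which was -0.014 with the replicate block, and -0.12 to 0.55 for Gja5. In non-infarcted LV they were -0.22 to 0.12 for Gja5, which was 0.00075 with DESeq2, and -0.10 to 0.0273 for Pkp2. The replicate block changed no other call than those given for Tjp1, Jup and Pkp2. The lowest count of any of the 10 genes was 34, for Gja5 in LV. With TMM-scaled library sizes 6 group means of the members moved by at least their SD and 54 did not.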

Other observations

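Among the other disc genes, Xirp1 and Xirp2, which encode actin-binding repeat proteins of the disc, were picked out after their values were seen. In the atria Xirp1 stood at 6525 ± 2657 CPM with liraglutide and 2351 ± 668 CPM with PBS (SD, n = 3; log2 fold change 1.59, SE 0.403, edgeR adjusted p = 0.506). Xirp2 stood at 1633 ± 347 and 754 ± 193 CPM (log2 fold change 1.23, SE 0.264, edgeR adjusted p = 0.399). Neither passed the threshold with edgeR, and DESeq2 called Xirp2 but not Xirp1.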
